A study of Homo sapiens with 8 samples.

Results

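Polyamine metabolism was examined through 10 genes, ODC1, AMD1, SRM, SMS, SAT1, SMOX, PAOX, OAZ1, OAZ2 and AZIN1, in LNCaP cells, a human prostate cancer line, after siRNA against GATA2. The genes were found on the array through the RefSeq accession carried by each probe. All 10 had at least 1 probe, 14 probes in all, and all 10 passed the filter on dim signal, out of 28850 genes and 35514 probes tested. The 4 arrays labelled siGATA2 carried RNA of cells taken 72 hours after transfection with 30 nM siRNA against GATA2, a transcription factor of the GATA family. The 4 arrays labelled siControl carried RNA of cells that received a scrambled siRNA in its place. All cells were one line grown as monolayers, and the labels number the arrays of a group as replicates 1 to 4. A single catalogue siRNA against GATA2 is named in the methods, so a response to loss of GATA2 and a response to that siRNA cannot be told apart.

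The polyamines putrescine, spermidine and spermine are small positively charged molecules that bind nucleic acids and are needed for cell growth. ODC1 makes putrescine from ornithine, and spermidine synthase (SRM) and spermine synthase (SMS) add aminopropyl groups that AMD1 prepares from S-adenosylmethionine. SAT1 acetylates spermidine and spermine, which are then oxidized by PAOX or exported, while SMOX oxidizes spermine directly. Antizymes (OAZ1, OAZ2) bind ODC1 protein and send it to the proteasome, and the antizyme inhibitor AZIN1 binds antizyme and releases ODC1. The secretory epithelium of the prostate is known for making unusually large amounts of polyamines, which it releases into seminal fluid.

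Values are log2 processed signal after quantile normalization, and a log2 fold change is the mean of the arrays labelled siGATA2 minus the mean of those labelled siControl. A gene was called where limma's moderated test gave a Benjamini-Hochberg adjusted p under 0.05 over the 28850 genes. Signal of 1 probe cannot be set against that of another, and in RNA of whole cultures fewer cells of a kind and less RNA per cell cannot be told apart.

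The arrays were checked before the members were compared. GATA2 itself was read by 1 tested probe, at 12.61, 12.54, 11.57 and 11.40 on the arrays labelled siGATA2 and 11.74, 11.28, 11.10 and 11.29 on those labelled siControl. The signal of this probe was thus not lower on the arrays that carry the siRNA against GATA2 (log2 fold change 0.68, SE 0.312, adjusted p = 0.154). GATA2 protein was not read on the arrays, and every direction given here rests on the labels. Between 34091 and 37033 of 42405 probes were well above background on 6 arrays, but 28560 on siControl array 1 and 24438 on siControl array 3. The spread of the negative control spots was 4.49 and 7.26 on these arrays and 1.78 to 2.4 on the others. The E1A spike-in, a set of 7 control probes for RNA added at labelling, read 13.45 to 13.83 on 7 arrays and 11.13 on siControl array 1. The luminal prostate markers KLK3, KLK2, FOLH1, TMPRSS2, KRT8 and KRT18 were well above background on all arrays. Of 8 markers of blood, vessel and connective tissue cells 7 were tested, and 1 was lower (VWF, -0.96) and 1 higher (PTPRC, 0.87). COL1A1, PTPRC, VWF and HBB were well above background on all 8 arrays. CD3E was so on 4 arrays labelled siGATA2 and 3 labelled siControl, COL1A2 on 3 and 2, and PECAM1 on 1 and 0. The summed normalized signal of the 7 markers, on the linear scale, ran from 3012 to 3679 on the arrays labelled siGATA2 and from 3000 to 4409 on those labelled siControl, and its part in the results was not tested.

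Of the 10 polyamine genes, ODC1 and SRM were lower on the arrays labelled siGATA2, SAT1 was higher, and 7 were not called. By the same rule 14.2% of all genes were lower and 12.3% higher, so the 2 falls and 1 rise among 10 genes are close to the background share. All 3 called genes had changed by at least 2-fold, as had 7.13% of all genes downward and 4.52% upward. The median log2 fold change of the 10 genes was -0.03, against 0.09 over all genes. Ranked by log2 fold change among the 28850 genes, SAT1 had the 170th largest rise, SRM the 935th largest fall and ODC1 the 2043rd largest fall.

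**Figure D1:**
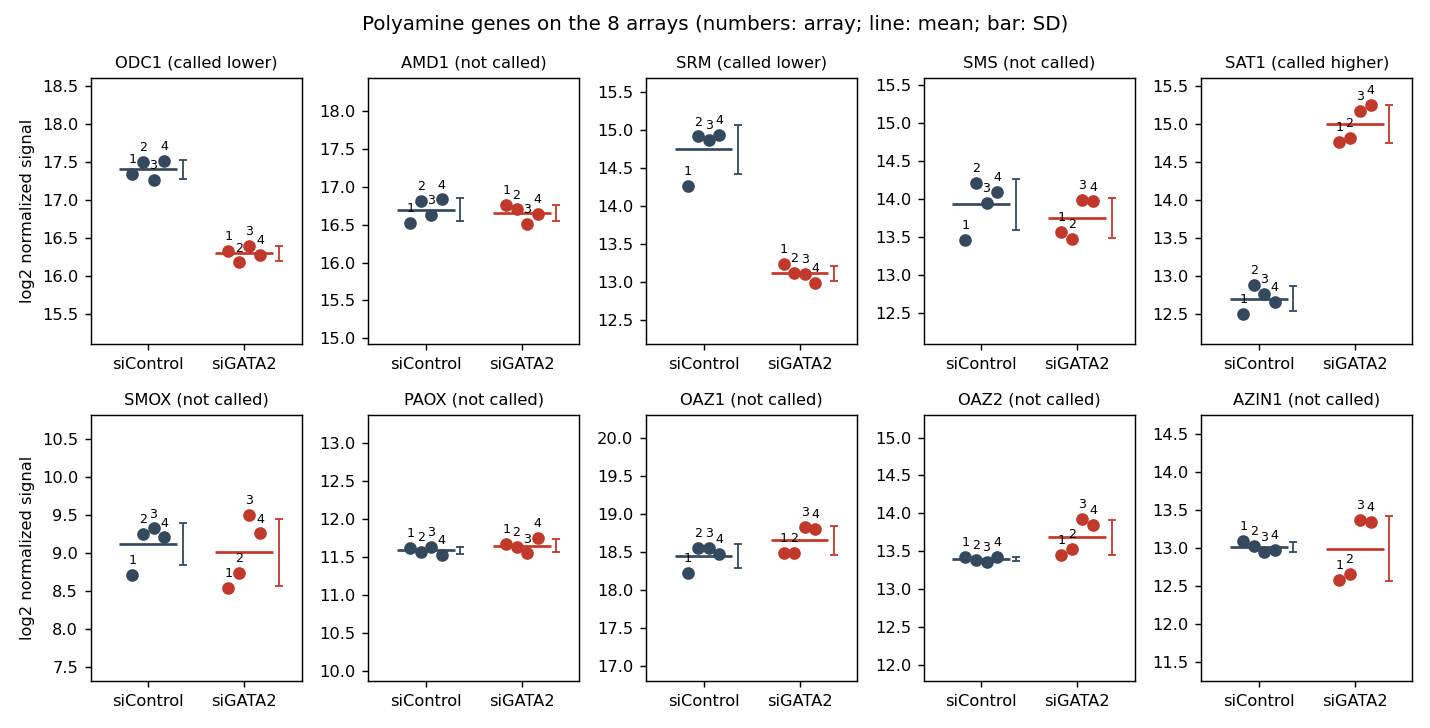
Log2 normalized signal (vertical axis, a span of equal length in every panel) of each polyamine gene on the 4 siControl and 4 siGATA2 arrays, numbered by replicate, with the group mean as a line and the SD as a bar. ODC1 and SRM on the siGATA2 arrays lie below, and SAT1 above, every siControl array, while the groups of 6 of the other genes overlap and those of OAZ2 do not.

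The upstream sequences of the 3 genes that passed the test are shown here because MYC, a regulator with which ODC1 is classically linked, was itself lower on the arrays labelled siGATA2. MYC read 12.30, 12.26, 11.98 and 12.09 on those arrays and 14.98, 14.98, 14.83 and 14.84 on the siControl arrays (log2 fold change -2.75, SE 0.111, adjusted p = 1.32e-05). The stretches are from RefSeq, build GRCh38.p14, written in the direction of transcription, with the palindrome CACGTG, an E-box read by MYC with its partner MAX, in capitals. The ODC1 and SRM stretches lie on the minus strand, at chr2:10448013-10448092 and chr1:11060169-11060248, and the SAT1 stretch lies on the plus strand, at chrX:23783073-23783172.
ODC1: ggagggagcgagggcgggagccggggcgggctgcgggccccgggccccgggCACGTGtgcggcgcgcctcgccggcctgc
SRM: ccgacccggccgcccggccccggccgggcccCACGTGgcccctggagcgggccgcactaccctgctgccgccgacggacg
SAT1: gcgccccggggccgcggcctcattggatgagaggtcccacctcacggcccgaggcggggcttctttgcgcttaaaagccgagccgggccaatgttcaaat

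In windows from 250 bases before to 50 after a transcription start, CACGTG began at positions -29 and 6 of one ODC1 start and at -199 of the SRM start. The other ODC1 start, 315 bases upstream, had no match in its window. Windows were listed for 7 of the 10 genes (none for SMOX, PAOX and AZIN1), and of these 7 only ODC1 and SRM held the E-box. Over all genes listed 8.77% of 27305 genes, and 7.26% of 35116 windows, held it. The GATA motif was searched on both strands as AGATAA, as the variant with T in front (TGATAA) and as the forms that end in G (AGATAG and the like TGATAG). None of these was in a window of the 7 genes, and 29.1% of all genes had at least 1 of them in a window. These matches describe letters in a short window, and binding was not measured. Whether MYC had a part in the changes of these genes was not tested.

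ODC1 (NM_002539), whose product makes putrescine and sets the pace of the pathway, had signals of 16.33, 16.18, 16.40 and 16.27 on the arrays labelled siGATA2 and of 17.34, 17.50, 17.26 and 17.51 on the siControl arrays. The highest of the first 4 was below the lowest of the others. The log2 fold change was -1.11 (SE 0.107, adjusted p = 0.000206), which is 2.16-fold lower with a 95% interval of 1.82 to 2.56. Its single probe was spotted 2 times per array, and the pair of spots differed most on siControl array 3, with an SD of 0.523 on the log2 scale.

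SRM (NM_003132), which converts putrescine to spermidine, was lower by more than ODC1. Its signals were 13.23, 13.12, 13.11 and 12.99 on the arrays labelled siGATA2, and 14.26, 14.92, 14.87 and 14.94 on the siControl arrays. SiControl array 1 lay below the other controls and still above every array labelled siGATA2. The log2 fold change was -1.63 (SE 0.17, adjusted p = 0.000295), or 3.1-fold lower (95% interval 2.36 to 4.08), and -1.80 without siControl array 1.

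The other pair of synthesis genes was not called. AMD1 (NM_001634), the decarboxylase that supplies aminopropyl groups, had 16.75, 16.70, 16.51 and 16.64 on the arrays labelled siGATA2 and 16.52, 16.81, 16.63 and 16.83 on the siControl arrays. The log2 fold change was -0.05 (adjusted p = 0.791), with a 95% interval of -0.31 to 0.22, and a second AMD1 probe gave -0.21 (adjusted p over probes 0.225). SMS (NM_004595), which makes spermine from spermidine, had 13.56, 13.47, 13.98 and 13.97 against 13.46, 14.21, 13.95 and 14.09 on the siControl arrays. Its log2 fold change was -0.18 (adjusted p = 0.549; interval -0.65 to 0.29). The intervals of both genes lie within a 2-fold change in either direction.

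SRM and SMS are related aminopropyltransferases that act in consecutive steps, so their changes were compared directly as the difference of the log2 values within each array. SRM minus SMS lay between -0.98 and -0.33 on the arrays labelled siGATA2 and between 0.709 and 0.919 on the siControl arrays. The change in SRM thus differed from that in SMS by -1.45 (SE 0.176). The gap between the SRM groups, from 13.23 to 14.26, was wider than the whole span of SMS over the 8 arrays, 13.46 to 14.21. An exact two-sided permutation test over the 8 arrays could therefore only give its smallest p for 4 against 4, 0.0286. After adjustment over the 3 pairs of genes compared this way it was 0.0429. The test adds nothing to the separate result of SRM.

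SAT1 (NM_002970), the acetyltransferase that starts the breakdown of spermidine and spermine, rose. Its brighter probe had 14.76, 14.82, 15.17 and 15.26 on the arrays labelled siGATA2 and 12.51, 12.88, 12.77 and 12.66 on the siControl arrays. The lowest array labelled siGATA2 was well over 1 log2 unit above the highest siControl array. The log2 fold change was 2.30 (SE 0.153, adjusted p = 4.16e-05), or 4.92-fold higher with a 95% interval of 3.85 to 6.3. A second SAT1 probe, for the same transcript, had 13.98, 14.15, 14.50 and 14.61 against 11.20, 12.30, 12.24 and 12.10. It gave 2.35 (SE 0.271, adjusted p over probes 0.000505), so both probes moved alike.

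ODC1 and SAT1, the regulated entry and exit of the pathway, changed in opposite directions. Their difference within an array, ODC1 minus SAT1, lay between 1.02 and 1.56 on the arrays labelled siGATA2 and between 4.49 and 4.85 on the siControl arrays. The shift was -3.41 (SE 0.144). Every array labelled siGATA2 lay below every siControl array for ODC1 and above every one for SAT1. The exact two-sided permutation test could therefore only give its smallest p, 0.0286 (0.0429 over the 3 pairs). It adds nothing to the separate results of the 2 genes.

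The oxidases were not called. SMOX (NM_175839), the spermine oxidase, had 8.54, 8.74, 9.50 and 9.26 on the arrays labelled siGATA2 and 8.72, 9.25, 9.33 and 9.21 on the siControl arrays, with a log2 fold change of -0.11 (adjusted p = 0.76; interval -0.68 to 0.45). PAOX (NM_152911), which oxidizes the acetylated polyamines, had 11.67, 11.63, 11.54 and 11.75 against 11.62, 11.56, 11.63 and 11.53, with a log2 fold change of 0.06 (adjusted p = 0.657; interval -0.15 to 0.28). The SMOX arrays spread over nearly 1 log2 unit within the group labelled siGATA2, whereas PAOX was among the steadiest of the 10 genes. The remaining PAOX probes, annotated to other transcripts of the gene (NM_207127 and NM_207128), gave 0.32 (adjusted p over probes 0.0982) and 0.16 (0.430).

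**Figure D2:**
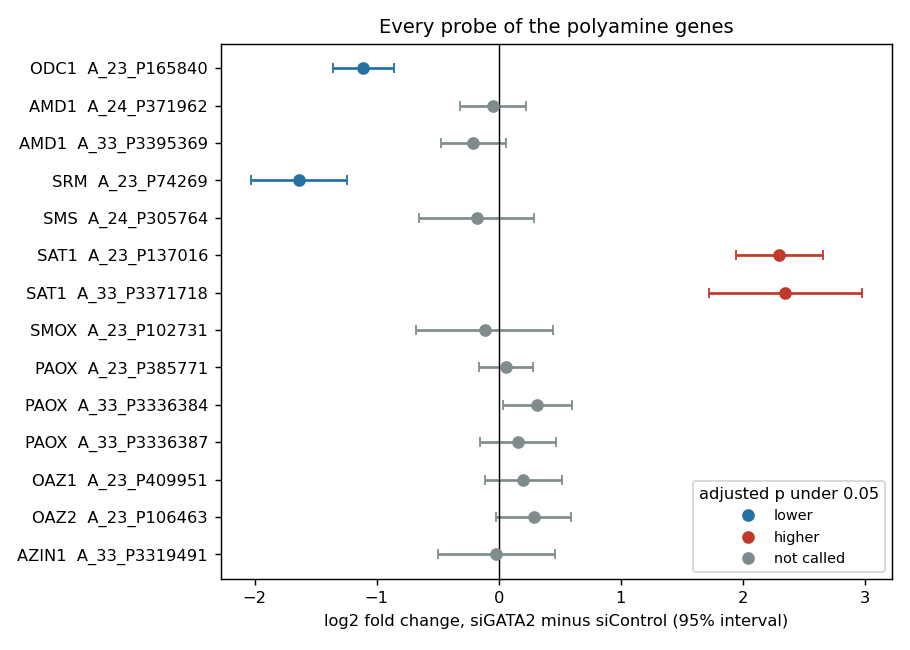
Log2 fold change, siGATA2 minus siControl (horizontal axis), of each of the 14 probes with its 95% interval, coloured by call after adjustment over 35514 probes. The ODC1 and SRM probes lie left of 0, both SAT1 probes lie right of 0 at 2.30 and 2.35, and the other 10 probes were not called.

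Of the 3 genes that act on ODC1 protein 0 were called, and 0 had an unadjusted p under 0.05 or passed the methods' t-test. OAZ1 (NM_004152), the main antizyme, had 18.49, 18.49, 18.83 and 18.80 on the arrays labelled siGATA2 and 18.22, 18.55, 18.55 and 18.47 on the siControl arrays (log2 fold change 0.20, adjusted p = 0.317; interval -0.11 to 0.52). OAZ2 (NM_002537), a second antizyme, had 13.45, 13.53, 13.92 and 13.84 against 13.43, 13.39, 13.37 and 13.42. Every array labelled siGATA2 was above every siControl array for OAZ2 but only just above between the nearest arrays, and the log2 fold change of 0.29 (SE 0.131) had an adjusted p of 0.152. Non-overlap alone is common here, as 16.2% of all genes lay wholly higher and 16.5% wholly lower. AZIN1 (NM_015878), the antizyme inhibitor, had 12.58, 12.66, 13.37 and 13.35 against 13.09, 13.03, 12.95 and 12.97, so that the siControl arrays fell between the 2 lower and the 2 higher arrays labelled siGATA2. Its log2 fold change was -0.02 (adjusted p = 0.953; interval -0.50 to 0.46). OAZ1 and AZIN1, which oppose each other, differed in their change by 0.22 (SE 0.159, exact two-sided permutation p = 0.286, also 0.286 over the 3 pairs).

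The spread within the group labelled siGATA2 followed the letters in the sample titles, whose meaning is not given in the sources used here. Arrays 1 and 2 carry the letters A and B, and arrays 3 and 4 carry E and F. For 6 of the 10 genes both A and B lay below E and F, for 2 (AMD1 and SRM) both lay above, and for ODC1 and PAOX they were mixed. The gap of the means was 0.74 for AZIN1, 0.74 for SMOX, 0.46 for SMS, 0.42 for SAT1, 0.39 for OAZ2 and 0.33 for OAZ1. Such a split held for 79.3% of all genes, so the 8 of 10 here are near the background.

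When the fit was blocked by letter, with A and B as one level and D, E, F and G as the other, an alternative chosen after seeing the data, OAZ1 (0.28, adjusted p = 0.00583) and OAZ2 (0.34, adjusted p = 0.0290) were called higher. SiControl array 1, the array with the low spike-in signal, was the only control at the level of A and B. Over all alternatives tried the adjusted p of OAZ1 and OAZ2 ran up to 0.812 and 0.913. OAZ2 was called also under array weights, and both genes were negative under spike-in scaling. ODC1, SRM and SAT1 kept their sign within both slide rows and within letters B and F, the letters that hold both groups. Each of these comparisons has an arm of a single array, 3 against 1 within a row and 1 against 1 within a letter, and none was tested. The control within letter B was siControl array 1 and that within letter F was siControl array 3. These are the arrays with the fewest probes well above background, 28560 and 24438. The difference within the upper slide row, within the lower slide row, within letter B and within letter F was -1.21, -1.09, -1.16 and -0.99 for ODC1. In the same order SRM gave -1.78, -1.69, -1.14 and -1.88, and SAT1 gave 2.26, 2.54, 2.32 and 2.49. AZIN1 gave -0.10, 0.33, -0.43 and 0.40 and so turned its sign from one level to the next.

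**Figure D3:**
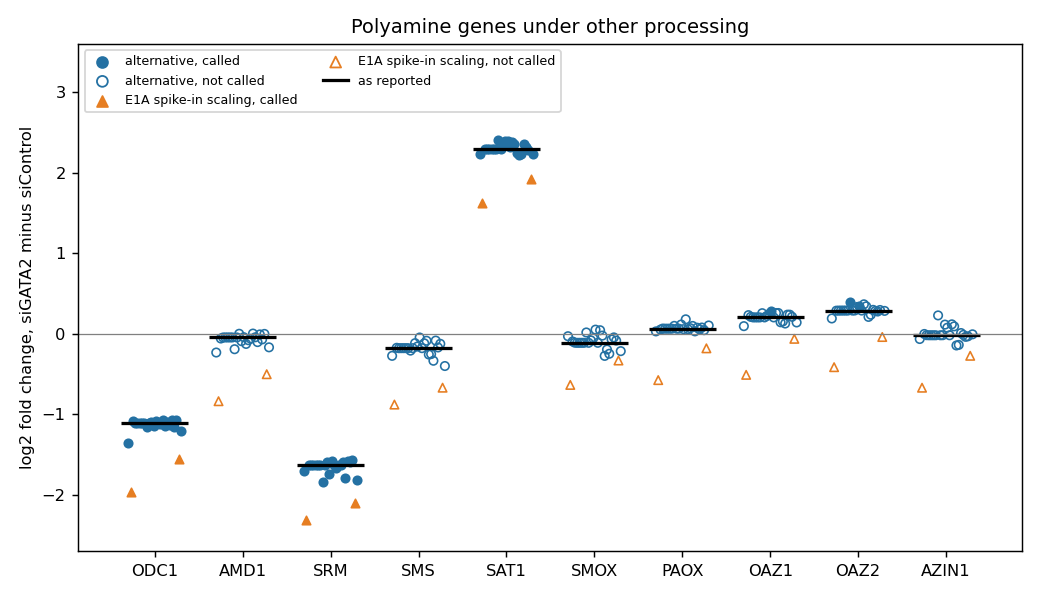
Log2 fold change, siGATA2 minus siControl (vertical axis), of each polyamine gene as reported (black line) and under 24 other ways of processing (circles, or triangles where scaled to the E1A spike-in), filled where the adjusted p was under 0.05. ODC1 stayed between -1.97 and -1.07, SRM between -2.31 and -1.57 and SAT1 between 1.62 and 2.40, while several of the other genes cross 0.

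The wider pathway was read from 45 related genes, all of them tested: 13 were lower, 1 was higher and 31 were not called. Over all genes 14.2% were lower and 12.3% higher. The lists were put together with earlier results of these data known, and no set test was made. The count of lower genes was 20 without siControl array 1, the array with the low spike-in signal, 8 with all arrays scaled to the spike-in, and 19 under that scaling without siControl array 1. Of the 13, 7 fell by at least 2-fold, as did 7.13% of all genes. The median log2 fold change of the 45 genes was -0.30.

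Genes of arginine and ornithine supply, which feed ODC1, had 6 of 12 lower and 1 higher, where 14.2% of all genes were lower and 12.3% higher. SLC7A1, the main cationic amino acid transporter of dividing cells, had 11.27, 11.17, 10.78 and 10.72 on the arrays labelled siGATA2 and 13.36, 13.30, 13.16 and 13.22 on the siControl arrays (log2 fold change -2.28, SE 0.152, adjusted p = 4.16e-05). SLC7A2, a related arginine transporter, had 8.93, 8.77, 8.57 and 8.68 against 11.05, 10.95, 10.98 and 11.06 (-2.27, SE 0.108, adjusted p = 1.63e-05). These are 4.86-fold and 4.82-fold lower signals, and in both genes the groups lay far apart. ARG1, the liver-type arginase, gave -1.49 (adjusted p = 0.00621) from a dim probe that was well above background on 1 array labelled siGATA2 and 2 siControl arrays. ASS1, which makes argininosuccinate in the route back to arginine, had 12.97, 12.86, 13.06 and 13.05 against 12.43, 11.995, 12.20 and 12.01. It was the single related gene to rise (0.83, SE 0.128, adjusted p = 0.00218), and under spike-in scaling it gave 0.18 with no call, or 0.64 and a call once siControl array 1 was left out. SLC25A15, the mitochondrial ornithine carrier, ARG2, the mitochondrial arginase, and ALDH18A1, which starts ornithine synthesis from glutamate, were lower by the same test at -1.33, -0.94 and -0.52.

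The methionine cycle and methylthioadenosine salvage supply the aminopropyl donor and recycle what remains of it. Of 14 genes of these routes 5 were lower and 0 higher, where 14.2% of all genes were lower and 12.3% higher. At an unadjusted p under 0.05 these were 7 and 0, where 18.3% of all genes were lower and 19.4% higher. MAT1A, the S-adenosylmethionine synthetase typical of liver, had 6.26, 6.34, 5.86 and 5.90 on the arrays labelled siGATA2 and 7.47, 7.92, 8.03 and 7.87 on the siControl arrays (-1.73, SE 0.173, adjusted p = 0.000244). MAT2A, the form used by most other cells, gave -0.16 (adjusted p = 0.602). MTR, methionine synthase, gave -0.74 (adjusted p = 0.000839) and the salvage enzyme ADI1 gave -0.58 (adjusted p = 0.0125). In both genes every array labelled siGATA2 lay below every siControl array, but their calls were lost under spike-in scaling, which moved the median of all genes from 0.09 to -0.43. The log2 fold changes under that scaling were larger, at -1.37 for MTR (SE 0.495) and -1.27 for ADI1 (SE 0.464), and without siControl array 1 both were called under it. MTRR and APIP were lower by smaller amounts, at -0.44 and -0.45. Dimmer probes of some of these genes gave other sizes. For MTRR such a probe gave -0.13 (adjusted p over probes 0.734), and for ADI1 -1.05 (0.00075). MTAP was not called by its brightest probe (-0.11), but a dimmer probe was called lower (-0.53, adjusted p over probes 0.00503) and another was not called (-0.64, 0.104).

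Among 9 genes of polyamine transport 2 were lower, where 14.2% of all genes were. SLC22A3, an organic cation transporter that also carries polyamines, had 7.16, 6.90, 6.59 and 6.24 on the arrays labelled siGATA2 and 9.03, 8.999, 9.11 and 9.14 on the siControl arrays (-2.35, SE 0.195, adjusted p = 0.000105). SLC18B1, a vesicular polyamine transporter, had 10.22, 10.00, 9.75 and 9.99 against 12.01, 11.39, 11.42 and 11.40 (-1.56, SE 0.178, adjusted p = 0.000468). In both genes the groups lay more than 1 log2 unit apart. None of the 5 genes around hypusine, the modified residue that eIF5A receives from spermidine, and none of the 5 close relatives of the 10 enzymes, such as SAT2 and AZIN2, passed the test. At an unadjusted p under 0.05, 1 of the hypusine genes (DHPS, deoxyhypusine synthase, 0.63) and 1 of the relatives (AGMAT, 0.41) did so, both upward as were 19.4% of all genes, and by the methods' t-test with adjustment none did.

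**Figure D4:**
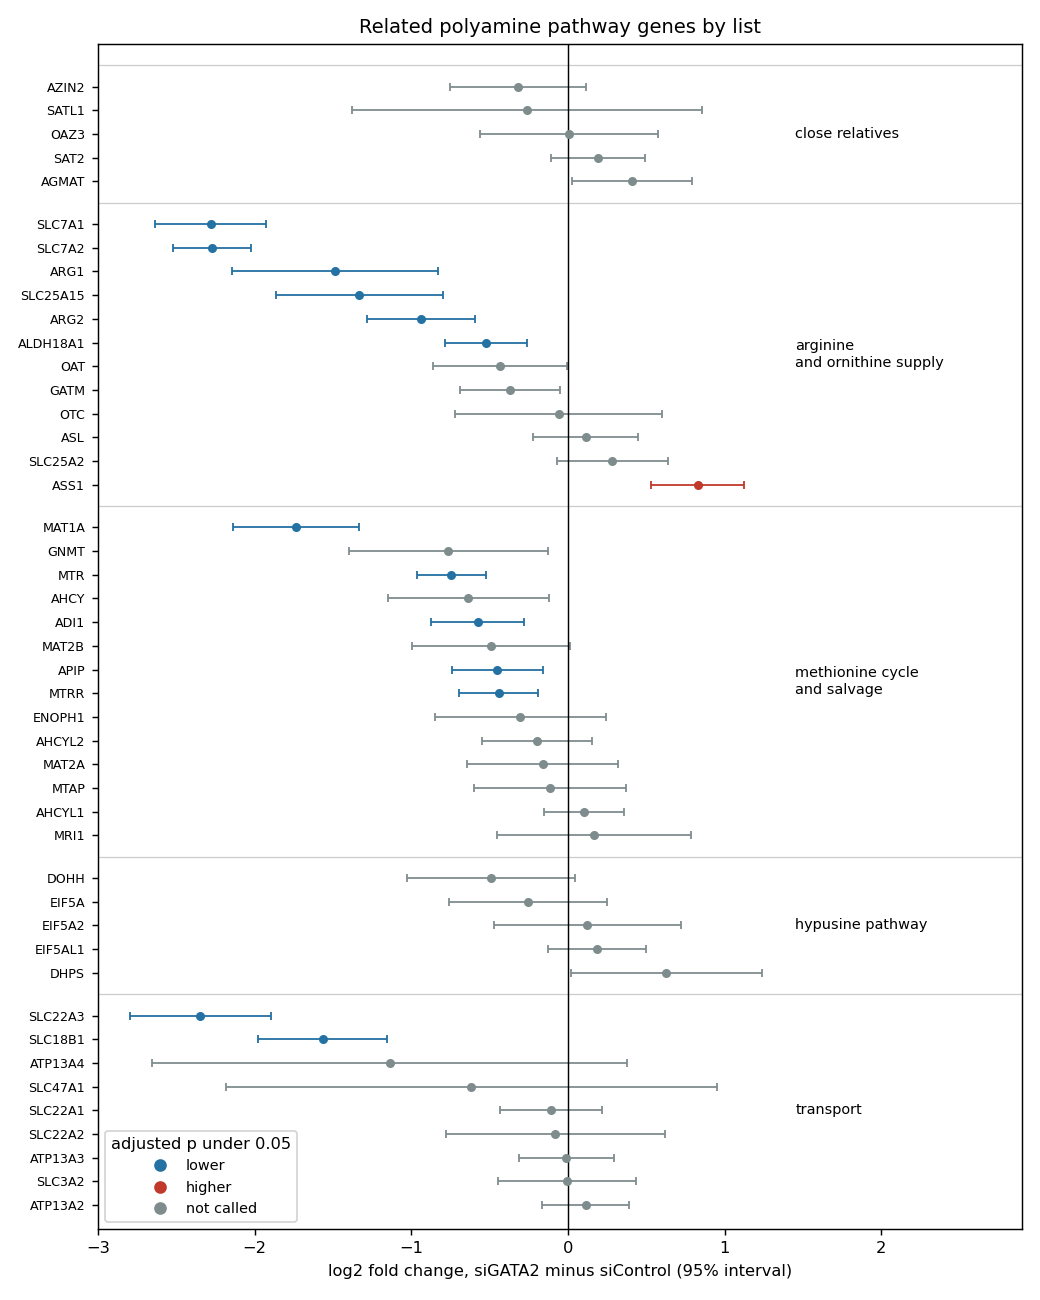
Log2 fold change, siGATA2 minus siControl (horizontal axis), of the 45 related genes with 95% intervals, grouped by list and coloured by call. The falls past 2-fold are SLC7A1, SLC7A2, ARG1 and SLC25A15 in arginine and ornithine supply, MAT1A in the methionine cycle, and SLC22A3 and SLC18B1 in transport, and ASS1 is the single gene called higher.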

How the data were processed

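Gene expression in LNCaP cells was profiled on 8 one-colour Agilent arrays of 1 slide, 4 per group, scanned once. Sample labels gave the groups and the replicate numbers. Scans were processed by the authors in Feature Extraction (Agilent, version 11.0.1.1), and the deposited scanner files hold background-corrected signal intensity per spot on a linear scale. The deposited value table holds quantile-normalized log2 values, which per the methods were made in GeneSpring, and it was used only as an alternative. The design number in the file headers differs from that in the methods, and probes were named from the files.

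Unflagged spots of a probe were averaged, log2 signals were quantile-normalized, and probes with a mean log2 under 3 or no annotation were removed. RefSeq accessions of 27902 probes were looked up in the RefSeq gene table, and 26364 gave a symbol. The brightest probe stood for a gene, and all probes of the members were also fitted. Groups were compared with limma 3.58.1 (lmFit and eBayes, R 4.3.3), Benjamini-Hochberg adjustment over 28850 genes and a threshold of 0.05. This stands in for the t-test of the methods, which was run as an alternative. The scripts were tested on simulated data. For pairs of genes an exact permutation test over arrays was used. With 4 arrays per group the number of arrays limits the precision, and p-values measure the spread between these samples. Of the related genes, the 3 largest falls and rises among called genes of each list were to be named with their values, and SLC25A15, ARG2, ALDH18A1, MTRR, APIP, MAT2A, DHPS and AGMAT were added after their values were seen. The members and lists were chosen with earlier results of these data known. Promoter windows were from RefSeq (GRCh38.p14), a different build from that of the file headers, so no coordinates of both builds were combined.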

Additional observations from a re-analysis of the deposited data

Results flagged for a closer look

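In 4 of 56 groups of 4 values tested, 1 array stood far from the other 3 by the ratio of its gap to the whole range of the group, and chance alone gives about 1 group in 20. All 4 were siControl groups, and the array that stood apart was siControl array 1 each time, the array with the low E1A spike-in signal. For SRM the ratio was 0.899, with 14.26 on this array and 14.87 to 14.94 on the others. For MTR it was 0.855 (11.72 against 11.61 to 11.62), for ADI1 0.837 (14.12 against 14.52 to 14.59) and for SLC18B1 0.946 (12.01 against 11.39 to 11.42). Without this array the log2 fold change of SRM was -1.80, that of MTR -0.72, that of ADI1 -0.68 and that of SLC18B1 -1.41, and all 4 kept their call.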

How the results depend on the processing

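Under all 24 other ways of processing, ODC1, SRM and SAT1 kept their direction and their call, with log2 fold changes of -1.97 to -1.07, -2.31 to -1.57 and 1.62 to 2.40 and highest adjusted p of 0.0171, 0.00544 and 0.0436. The members called lower numbered 2 in every setting. Those called higher numbered 1, but 2 with array weights (OAZ2, 0.40) and 3 with the title letters as a block, where GATA2 stood at 0.47 (adjusted p = 0.0261, range over alternatives 0.0261 to 0.986). Related genes called lower numbered 13, but 20 with array weights, 8 when scaled to the E1A spike-in (19 under that scaling without siControl array 1), 19 with the letters as a fixed block, 16 with siControl arrays 2 and 4 as the controls, 15 with the letter as a random block, 7 at 2-fold or more, and 11 to 20 when 1 array was left out (20 without siControl array 1). Those called higher numbered 1, but 0 under spike-in scaling, 3 with array weights, 3 with the title letter as a random block, 4 with the letters as a fixed block, 0 at 2-fold, and 1 to 2 with 1 array left out (2 without siGATA2 array 1). ASS1 (0.18, adjusted p = 0.899), MTR (-1.37, 0.108) and ADI1 (-1.27, 0.112) lost their call under spike-in scaling with all arrays, and kept it under that scaling without siControl array 1; their lowest adjusted p over the alternatives were 6.73e-05, 6.11e-05 and 0.000386. The cause of these changes was not tested.

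The sign of genes that were not called changed as follows, with no call in any of these cases. Under spike-in scaling, with all arrays and without siControl array 1, PAOX gave -0.58 and -0.18, OAZ1 -0.51 and -0.064, and OAZ2 -0.42 and -0.042. With 1 array left out AMD1 ranged from -0.10 to 0.0012 (without siGATA2 array 3), SMOX from -0.28 to 0.042 and AZIN1 from -0.15 to 0.12. SMOX gave 0.015 with array weights, 0.0499 with the letters as a block and 0.042 without siGATA2 array 1. AZIN1 gave 0.23 with array weights, 0.11 with slide row as a block, 0.074 with the letters as a block, 0.12 and 0.09 without siGATA2 arrays 1 and 2, and 0.0076 without siControl array 1. The differences between pairs of genes kept their direction in 17 alternatives each. In the 7 that used all arrays the exact p of ODC1 minus SAT1 and of SRM minus SMS stayed at 0.0286, the smallest the test can give. The others left out arrays and give values with no test, since with 3 arrays against 4 the exact p cannot go below 0.0571.

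Replicate numbers did not pair the arrays. The deviations of same-numbered arrays correlated at 0.54, -0.31, 0.17 and 0.22, and not every array correlated best with its own number. With the replicate number as a block 2 members were lower and 1 higher, and 11 related genes were lower and 1 higher. Slide could not be used as a block, since there was 1 slide. Signal limits what can be said of ARG1, and of other dim probes on siControl arrays 1 and 3.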
